A study of Mus musculus with 24 samples.

Results

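Open chromatin was compared between bone marrow-derived macrophages of C57BL6/J mice exposed to a single dose of lipopolysaccharide (LPSx1) and macrophages of the same strain kept in media. The libraries were chosen by their strain and treatment labels, and the only measured value that entered the choice was the number of peaks in a list. Lists under 5000 peaks were left out, so 7 of the 8 labelled libraries were used, from 24 libraries in the series. The LPSx1 group held animals 1, 4, 6 and 7, whose cells received 100 ng/ml LPS for 24 hours, and the media group held animals 1, 4 and 7, whose cells received no LPS. The media list of animal 6 held 299 peaks and entered only the comparison of list lengths. All these animals were male, the marrow was taken at postnatal day 28, and cells were grown for 7 days before they were reseeded. The series also holds C57BL6/J cells given LPS for 4 hours and again, after a wash and about 20 hours of rest, for 24 hours (LPSx2), and LPSx1, LPSx2 and media cells of the inbred strain BTBR (BTBR T+ Itpr3tf/J). The labels give a biological replicate number that was taken as the animal, so p-values measure the spread between those cultures.

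LPS, a glycolipid on the surface of Gram-negative bacteria, is detected by macrophages with the receptor Tlr4. Signalling through Tlr4 activates NF-kB and, through MAP kinases, AP-1, the dimers of Fos, Jun and Atf family proteins that bind TGACTCA or TGAGTCA. In macrophages these factors act at enhancers that PU.1, the lineage factor encoded by Spi1, and C/EBP factors keep accessible. The assay for transposase-accessible chromatin (ATAC-seq) marks such places, since the Tn5 transposase inserts sequencing adapters mainly where DNA is free of nucleosomes.

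All deposited peaks have the same width, and the sequences under a selection of regions that differed between the treatments are shown first. A region was called gained when it was found in 4 of 4 LPSx1 lists and 0 of 3 media lists, and lost when it was found in 3 of 3 media lists and 0 of 4 LPSx1 lists. The first 4 gained and first 4 lost regions below were the best ranked by peak score among those that were also found in at least 3 of 4 BTBR lists of the matching treatment and at most 1 of 4 of the other. A gained region of Pde4b and a lost region of Hes1 were added after their values were seen, because these genes stand among the largest changes in peak number. Sequences are the plus strand of mm10, 5′ to 3′, read from the RefSeq copy of the GRCm38.p6 assembly, and capitals mark matches to the motifs named with each region. All regions are named by the gene with the nearest transcription start site (TSS).
Uck2, gained, chr1:167242217-167242417, in an intron of Uck2, 1 AP-1 match: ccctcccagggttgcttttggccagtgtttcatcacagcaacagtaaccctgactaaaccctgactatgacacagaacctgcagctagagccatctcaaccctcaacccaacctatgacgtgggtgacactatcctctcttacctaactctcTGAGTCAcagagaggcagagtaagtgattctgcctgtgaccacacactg
Tgds, gained, chr14:118109826-118110026, intergenic, 1 AP-1 match: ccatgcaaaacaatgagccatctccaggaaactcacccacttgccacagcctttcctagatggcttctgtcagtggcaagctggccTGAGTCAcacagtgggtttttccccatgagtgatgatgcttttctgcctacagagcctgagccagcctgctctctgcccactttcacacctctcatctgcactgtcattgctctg
Arl15, gained, chr13:114078024-114078224, in an intron of Arl15, 1 PU.1 match: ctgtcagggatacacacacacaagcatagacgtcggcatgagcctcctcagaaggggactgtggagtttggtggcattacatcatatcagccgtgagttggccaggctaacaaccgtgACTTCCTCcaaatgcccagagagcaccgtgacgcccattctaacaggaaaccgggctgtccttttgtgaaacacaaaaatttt
Itga9, gained, chr9:118669842-118670042, in an intron of Itga9, 1 NF-kB match: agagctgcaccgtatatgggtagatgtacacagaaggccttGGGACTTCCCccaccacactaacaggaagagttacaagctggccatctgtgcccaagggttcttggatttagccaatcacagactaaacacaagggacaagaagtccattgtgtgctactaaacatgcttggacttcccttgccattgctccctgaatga
Pde4b, gained, chr4:102515153-102515353, in an intron of Pde4b, 1 PU.1 and 1 AP-1 match: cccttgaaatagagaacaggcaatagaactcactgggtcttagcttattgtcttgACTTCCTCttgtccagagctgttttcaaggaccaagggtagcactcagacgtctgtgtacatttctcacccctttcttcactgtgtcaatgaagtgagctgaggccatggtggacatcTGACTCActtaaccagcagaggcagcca
Rpl3, lost, chr15:80071997-80072197, intergenic, no match: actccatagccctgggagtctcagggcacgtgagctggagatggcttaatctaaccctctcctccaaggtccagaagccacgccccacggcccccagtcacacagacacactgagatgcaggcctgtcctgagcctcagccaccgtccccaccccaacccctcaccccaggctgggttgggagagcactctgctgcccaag
Acoxl, lost, chr2:128008866-128009066, in an intron of Acoxl, no match: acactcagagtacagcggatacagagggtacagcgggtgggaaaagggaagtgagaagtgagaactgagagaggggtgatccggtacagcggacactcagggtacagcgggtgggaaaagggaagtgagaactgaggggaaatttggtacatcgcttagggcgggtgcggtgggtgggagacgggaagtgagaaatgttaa
Hdac4, lost, chr1:92216380-92216580, intergenic, 2 NF-kB matches and 1 RUNX match: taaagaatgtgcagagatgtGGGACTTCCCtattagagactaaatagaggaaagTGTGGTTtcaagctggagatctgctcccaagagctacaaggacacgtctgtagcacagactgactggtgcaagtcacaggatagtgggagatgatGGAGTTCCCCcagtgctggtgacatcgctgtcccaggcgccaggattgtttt
Pald1, lost, chr10:61383387-61383587, in an exon of Pald1, no match: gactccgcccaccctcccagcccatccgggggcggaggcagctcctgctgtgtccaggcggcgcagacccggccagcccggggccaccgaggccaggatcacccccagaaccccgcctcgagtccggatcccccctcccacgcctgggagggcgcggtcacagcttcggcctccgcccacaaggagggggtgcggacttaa
Hes1, lost, chr16:30064072-30064272, intergenic, 1 SP/KLF and 1 NF-kB match that overlap: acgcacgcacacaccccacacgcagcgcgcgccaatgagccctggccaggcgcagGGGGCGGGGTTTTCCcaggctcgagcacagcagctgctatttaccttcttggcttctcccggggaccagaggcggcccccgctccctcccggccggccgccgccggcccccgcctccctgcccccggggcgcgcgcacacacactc

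Of the first 4 gained regions 3 lay in introns and 1 between genes, at 22821 to 283502 bp from the nearest TSS. Their peaks were within the strongest 2.63% to 11.4% of the LPSx1 lists, after lists were limited in length as described below. They were absent from every limited media list. Each was found in 4 of 4 BTBR LPSx1 lists, 0 of 4 BTBR media lists and 3 of 3 C57BL6/J LPSx2 lists. The choice of regions fixed the absence from C57BL6/J media and left little room in the BTBR counts. The first 4 lost regions were 43 to 99908 bp from a TSS. Their peaks stood at 6.60% to 36.0% of the limited media lists, counted from the strongest. The Pald1 region, 43 bp from a TSS, was the only promoter among these 8. The Pde4b peak lay 54842 bp from a TSS and was found in 4 of 4 BTBR LPSx1 lists, 2 of 4 BTBR media lists and 3 of 3 C57BL6/J LPSx2 lists. The lost Hes1 peak lay 1168 bp from the Hes1 TSS and was found in 2 of 4 BTBR LPSx1 lists, 1 of 4 BTBR media lists and 0 of 3 C57BL6/J LPSx2 lists.

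The deposited lists give peaks and not reads, so the sequencing depth behind a peak is unknown. After overlapping peaks within a list were merged, the LPSx1 lists of animals 1, 4, 6 and 7 held 30799, 30945, 25333 and 33981 peaks, and the media lists of the same animals held 11350, 22039, 299 and 22382 peaks. Every LPSx1 list was longer than every media list, by 2.23 on the log2 scale on average (exact 2-sided permutation p = 0.0286 over 70 arrangements, the smallest this design allows). Without animal 6 the difference was 0.84 on the log2 scale (exact permutation p = 0.1, the smallest that 3 against 3 allow). In the lists as deposited it was 2.09 (exact permutation p = 0.171). As deposited, the lists of animal 1 and the media list of animal 4 held most peaks in duplicate. Additional PCR cycles numbered 6, 6, 10 and 12 in the LPSx1 libraries of animals 1, 4, 6 and 7, against 6, 7 and 13 in the media libraries of animals 1, 4 and 7. To compare the treatments at equal length, each list was limited to its 11350, 22039, 16045 or 13957 strongest peaks in sequencing lanes 1, 2, 3 and 4, which held animals 1, 4, 6 and 7. The values below thus describe how the strongest peaks were distributed, and not the total amount of accessible DNA.

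The macrophage label was checked against 14 marker genes. Of these, 8 to 14 had at least 1 peak in each LPSx1 list and 11 to 14 in each media list, and Cd68 had a promoter peak in 7 of 7 libraries. Summed over the 14 genes, 12 to 55 peaks were found with LPSx1 and 20 to 47 in media. Of 50 markers of other cell types, 0 or 1 had a promoter peak in any library. Their peaks at any position summed to 5 to 14 with LPSx1 and 7 to 17 in media. No peak at all was assigned to the 6 B cell, 7 neutrophil and 5 mast cell and basophil markers in the 7 libraries. Of the 7 dendritic cell markers 2 to 4 had a peak in each LPSx1 list and 2 to 5 in each media list, and of the 10 T and NK cell markers 1 to 2 and 1 to 4. Klrb1c, an NK cell receptor gene, and Flt3, a receptor gene of dendritic cells and progenitors, had a peak in 7 of 7 libraries, and the erythroid factor gene Klf1 in 4 of 7, none at a promoter. Chromatin from fewer cells of a type and less accessible chromatin per cell cannot be told apart in such bulk samples.

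After a single LPS dose, more of the strongest peaks lay at Pde4b, Glrx, Ltbp1, Cyfip1 and Atp6v1g3 and fewer at Tex44, Hes1, Cd300a, Mthfs and Lgals3. Peaks were assigned to the nearest TSS of a protein-coding gene within 100 kb, and limma was run on the 9123 genes that averaged 0.5 peaks or more per library, with Benjamini-Hochberg adjustment and a threshold of 0.05. Peak number rose at 157 genes, 1.72% of those tested, and fell at 140, or 1.53%. Of these 297 genes, 281 moved the same way in all 3 animals with both lists. With the animal as a block, the counts were 50 and 42 genes. Over all 9123 genes, every LPSx1 library stood above every media library at 195 (2.14%) and below at 120 (1.32%). The counts depend on settings: 3 genes passed without the lane term, 6 without animal 4 and 0 at full list length (482 there had an unadjusted p under 0.05). Of the 24 genes named next, 0 passed without the lane term and 3 when only the 7 libraries entered the fit.

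**Figure D1:**
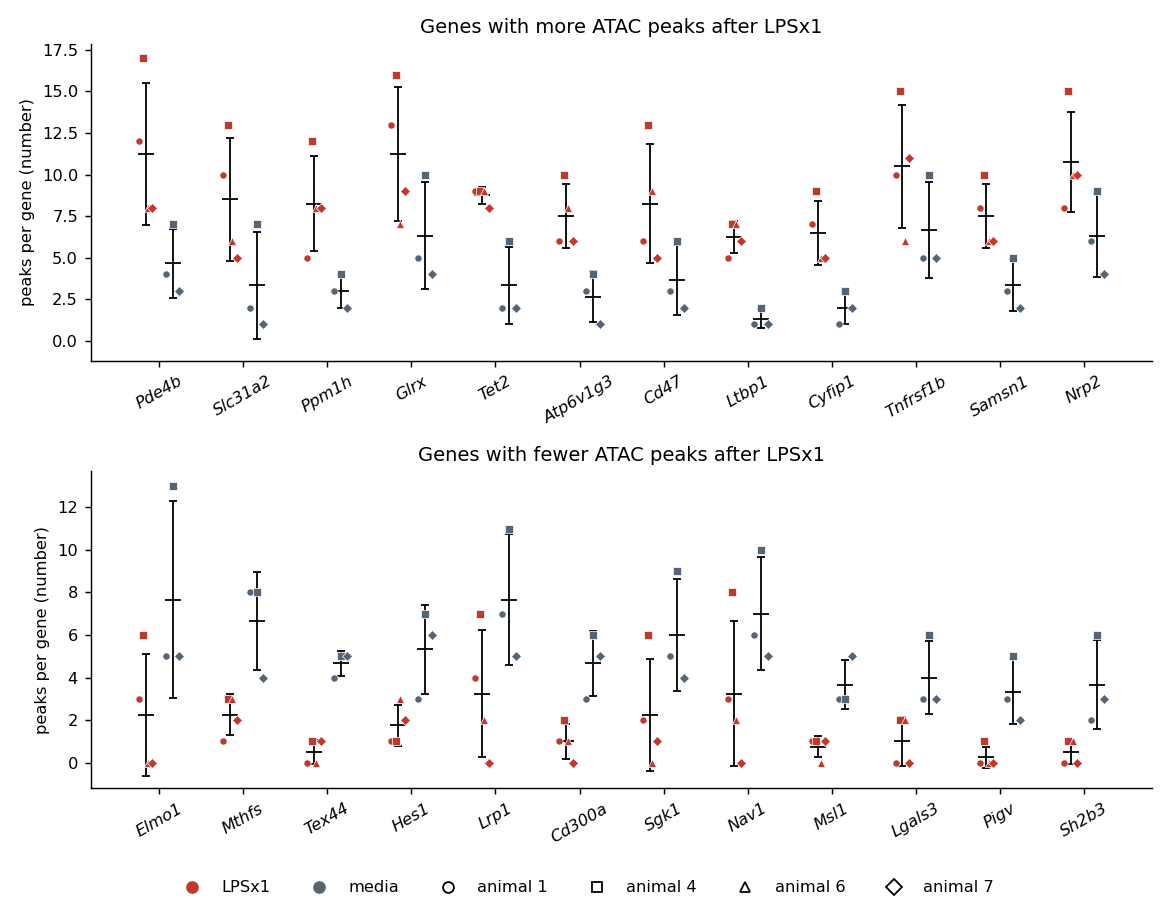
Number of peaks per gene in each C57BL6/J library at the 12 genes with the largest rises (top) and the 12 with the largest falls (bottom). LPSx1 libraries (red) stand left of media libraries (grey), the marker shape gives the animal, and the bars give the mean ± SD. The LPSx1 and media libraries do not overlap at 7 of the 12 rises and 7 of the 12 falls, genes chosen for the size of their change.

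Pde4b (chromosome 4, 102087543 to 102607259) encodes a phosphodiesterase that degrades cyclic AMP. It had 12, 17, 8 and 8 peaks in the LPSx1 libraries of animals 1, 4, 6 and 7, against 4, 7 and 3 in the media libraries of animals 1, 4 and 7. Every LPSx1 library was above every media library, and the fitted difference was 7.33 ± 1.01 peaks (SE, limma adjusted p = 0.00262). Ltbp1, which tethers latent TGF-beta in the matrix (chromosome 17, 75005568 to 75392512), had 5, 7, 7 and 6 peaks with LPSx1, against 1, 2 and 1 in media. These groups did not overlap either, and the difference was 4.85 ± 0.84 peaks (limma adjusted p = 0.0066). Cyfip1, a subunit of the WAVE complex that regulates actin, had 7, 9, 5 and 5 peaks with LPSx1, against 1, 3 and 2 in media (difference 4.81 ± 0.72, limma adjusted p = 0.00349). Atp6v1g3, a subunit of the vacuolar proton pump, had 6, 10, 8 and 6 peaks with LPSx1, against 3, 4 and 1 in media (difference 5.23 ± 0.88, limma adjusted p = 0.0066). At Glrx, which encodes a glutaredoxin, the LPSx1 libraries had 13, 16, 7 and 9 peaks and the media libraries 5, 10 and 4. The Glrx ranges overlapped across animals, but all 3 pairs of 1 animal rose (difference 5.75 ± 1.01, limma adjusted p = 0.00678).

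Tet2, a DNA demethylase, had 9, 9, 9 and 8 peaks with LPSx1, against 2, 6 and 2 in media. It had the most gained regions of any gene, with 4. Its difference of 5.42 ± 1.34 peaks passed (limma adjusted p = 0.0346) but lost its call without 6 of the 7 libraries, each left out alone, with adjusted p up to 0.109. The copper transporter gene Slc31a2 had 10, 13, 6 and 5 peaks with LPSx1, against 2, 7 and 1 in media (difference 5.94 ± 1.16, limma adjusted p = 0.0124). Without the media library of animal 1 its adjusted p was 0.0512. The other 5 largest rises were Ppm1h, a protein phosphatase, Cd47, the ligand of Sirpa that restrains phagocytosis, Tnfrsf1b, a receptor of TNF, Samsn1, an adaptor, and Nrp2, a receptor of semaphorins. Their group means were 7.50 to 10.8 peaks with LPSx1 and 3.00 to 6.67 in media. Of all 12 rises, Pde4b, Glrx, Atp6v1g3, Ltbp1 and Cyfip1 kept their call when any 1 library was left out, and these 5 and Slc31a2 kept it with the animal as a block. The added peaks were mostly distal, over 1 kb from any TSS. Glrx averaged 10.2 distal peaks with LPSx1 and 5.33 in media, and Ltbp1 averaged 6.25 with LPSx1 and 1.33 in media.

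Peak number fell most at Elmo1, a regulator of Rac in engulfment (chromosome 13, 20090596 to 20608353). It had 3, 6, 0 and 0 peaks in the LPSx1 libraries of animals 1, 4, 6 and 7, against 5, 13 and 5 in the media libraries of animals 1, 4 and 7 (difference -4.98 ± 0.93, limma adjusted p = 0.0098). The groups overlapped, since animal 4 had 6 peaks with LPSx1, and without the media library of animal 4 the adjusted p was 0.0563. Hes1, a repressor and classical Notch target (chromosome 16, 30064384 to 30067796), had 1, 1, 3 and 2 peaks with LPSx1, against 3, 7 and 6 in media (difference -3.90 ± 0.66, limma adjusted p = 0.0066). Mthfs, an enzyme of folate metabolism, had 1, 3, 3 and 2 peaks with LPSx1, against 8, 8 and 4 in media (difference -4.40 ± 0.84, limma adjusted p = 0.0105). At Tex44 there were 0, 1, 0 and 1 peaks with LPSx1, against 4, 5 and 5 in media (difference -4.38 ± 0.68, limma adjusted p = 0.00463). Of these genes Mthfs and Tex44 showed no overlap of the groups.

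Cd300a, an inhibitory receptor of myeloid cells, had 1, 2, 1 and 0 peaks with LPSx1, against 3, 6 and 5 in media (difference -3.48 ± 0.61, limma adjusted p = 0.00678). Lgals3, which encodes galectin-3, had 0, 2, 2 and 0 peaks with LPSx1, against 3, 6 and 3 in media (difference -3.12 ± 0.54, limma adjusted p = 0.0066). Sgk1, a kinase induced by glucocorticoids, had 2, 6, 0 and 1 peaks with LPSx1, against 5, 9 and 4 in media (difference -3.40 ± 0.61, limma adjusted p = 0.00747). The other 5 largest falls were Lrp1, a scavenger and signalling receptor of the LDL receptor family, Nav1, Msl1, Pigv, an enzyme of GPI anchor synthesis, and Sh2b3, an adaptor that restrains cytokine receptors. They averaged 0.25 to 3.25 peaks with LPSx1 and 3.33 to 7.67 in media. Of the 12 falls, Cd300a, Hes1, Lgals3, Mthfs, Pigv, Sgk1 and Tex44 kept their call when any 1 library was left out, and these 7 and Elmo1 kept it with the animal as a block. In the full lists, where LPSx1 lists are longer, 8 of the 12 falls lay on the other side of 0 (Elmo1, Mthfs, Lrp1, Sgk1, Nav1, Pigv, Lgals3 and Sh2b3), while Hes1, Tex44, Cd300a and Msl1 stayed below 0 without passing. For those 8 genes the fall describes the strongest peaks and not the full lists.

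Genes of the response to LPS were grouped into lists by function, beside the median difference of 0 peaks over all 9123 genes, of which 4143 had a positive and 4437 a negative difference. Over all these genes 1.72% rose and 1.53% fell. The counts of passing members per list were not tested against these shares. Of 18 tested genes that sense LPS through Tlr4, 0 passed. The receptor gene Tlr4 itself had 5, 9, 8 and 8 peaks with LPSx1, against 4, 5 and 1 in media, a difference of 4.04 ± 1.17 peaks that did not pass (limma adjusted p = 0.065). Of 21 NF-kB subunits, inhibitors and regulators, 0 rose and Sqstm1, the autophagy adaptor p62, fell, with 0, 1, 1 and 1 peaks with LPSx1 against 3, 3 and 3 in media (limma adjusted p = 0.0267). Nfkbia, the inhibitor that NF-kB induces, had 8, 13, 2 and 6 peaks with LPSx1 and 4, 6 and 5 in media and did not pass (limma adjusted p = 0.208). Among 19 genes of negative feedback and tolerance, Pde4b rose and 0 fell. The list's median difference was 0.02 peaks. In it the phosphatase gene Dusp1 (-3.69 ± 1.15 peaks, limma adjusted p = 0.0823) and the kinase-like inhibitor gene Irak3 (3.58 ± 1.11 peaks, limma adjusted p = 0.0801) did not pass.

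**Figure D2:**
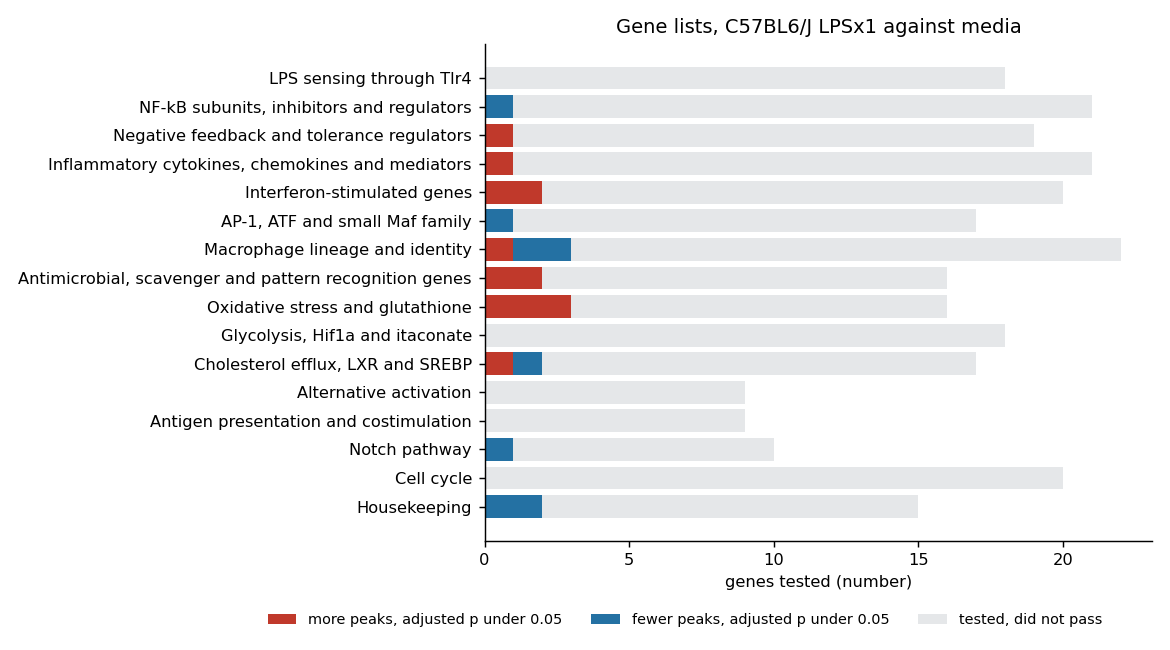
Number of genes tested in each gene list, split into genes with more peaks after LPSx1 (red), fewer peaks after LPSx1 (blue) and genes that did not pass (grey). At most 3 members of a list passed in either direction, in lists of 9 to 22 tested genes. Over all genes tested 1.72% rose and 1.53% fell.

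Of 21 inflammatory cytokines, chemokines and mediators tested, 1 rose and 0 fell, and 17 had a positive and 4 a negative difference, with a median of 1.06 peaks. The gene that rose was Ptgs2, the inducible cyclooxygenase of prostaglandin synthesis. It had 4, 6, 7 and 4 peaks with LPSx1, against 2, 2 and 1 in media, and the groups did not overlap (difference 3.15 ± 0.73, limma adjusted p = 0.0267). Il1b, the precursor gene of interleukin-1 beta, had 11, 13, 1 and 3 peaks with LPSx1 and 2, 3 and 1 in media. It was high in animals 1 and 4 alone and did not pass (difference 5.73 ± 2.13, limma adjusted p = 0.148). Il1a and the neutrophil chemokine gene Cxcl1, with differences of 2.00 ± 0.60 and 1.83 ± 0.55 peaks, did not pass either (limma adjusted p = 0.0732 and 0.0744).

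Among 20 interferon-stimulated genes tested, Gbp5 and Parp14 rose, 0 fell and 18 did not pass, with a median difference of 0.46 peaks. Gbp5, a guanylate-binding protein of cell-autonomous defence, had 2, 5, 3 and 2 peaks with LPSx1, against 0, 2 and 0 in media (difference 2.27 ± 0.55, limma adjusted p = 0.0321). Parp14 had 1, 3, 0 and 1 peaks with LPSx1 and 0 in each media library (limma adjusted p = 0.0382). Rsad2, which encodes the antiviral protein viperin, had 2, 2, 3 and 3 peaks with LPSx1, against 0, 1 and 0 in media. Its groups did not overlap, but it did not pass over all genes (limma adjusted p = 0.065). Of 16 antimicrobial, scavenger and pattern recognition genes, Fpr1 and Camp rose and 0 fell. Fpr1, a receptor of formylated bacterial peptides, had 5, 8, 1 and 3 peaks with LPSx1, against 1, 1 and 0 in media (difference 4.12 ± 0.84, limma adjusted p = 0.0143). Camp, the cathelicidin gene, had 1 peak in each LPSx1 library and 0 in each media library, and this call was lost without any single one of the 7 libraries (adjusted p up to 0.106).

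Of 16 genes of oxidative stress and glutathione, Slc7a11, Glrx and Slc31a2 rose and 0 fell, against 1.72% and 1.53% of all genes. The median difference in this list was -0.17 peaks. Slc7a11, the cystine importer that feeds glutathione synthesis, had 3, 8, 6 and 5 peaks with LPSx1, against 1, 5 and 1 in media (difference 3.40 ± 0.77, limma adjusted p = 0.0239). Nfe2l2, the factor Nrf2 that induces many genes of this list, had a difference of -1.31 ± 1.00 peaks (limma adjusted p = 0.544). In the AP-1, ATF and small Maf family 17 genes were tested, 0 rose and Jund fell, and 12 of 17 differences were negative with a median of -1 peaks. Jund had 0, 0, 1 and 1 peaks with LPSx1, against 3, 2 and 3 in media (difference -2.31 ± 0.45, limma adjusted p = 0.0117). Fos had 2, 7, 2 and 3 peaks with LPSx1 and 4, 8 and 8 in media, and missed the threshold (limma adjusted p = 0.272). Peaks at the genes of these factors and peaks with their motif, described below, are separate measures.

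Of 22 genes of macrophage lineage and identity, Lyz2 rose, Lgals3 and Cd300a fell and 19 did not pass, with a median difference of -0.02 peaks. Lyz2, the lysozyme gene, had 6, 6, 4 and 4 peaks with LPSx1, against 2, 4 and 1 in media (difference 3.06 ± 0.60, limma adjusted p = 0.0127). In cholesterol metabolism (17 genes tested) Sqle rose and Fasn fell. Sqle, squalene epoxidase of cholesterol synthesis, had 2, 3, 2 and 2 peaks with LPSx1 and 1 in each media library (limma adjusted p = 0.0166). Fasn, fatty acid synthase, had 0 peaks in each LPSx1 library and 1, 2 and 2 in media (limma adjusted p = 0.0127). Of 10 Notch pathway genes Hes1 fell, and Maml3, a coactivator of Notch, had 6, 6, 5 and 3 peaks with LPSx1 against 8, 10 and 8 in media without passing (limma adjusted p = 0.0753). Of 15 housekeeping genes tested 2 fell, among them the tubulin gene Tubb5, and 0 rose, and 10 differences were negative and 3 positive. By limma 0 genes passed among 18 of glycolysis, Hif1a and itaconate, 9 of alternative activation, 9 of antigen presentation and 20 of the cell cycle. The largest differences there were Acod1 (2.60 ± 1.25 peaks, adjusted p = 0.267), Arg1 (2.00 ± 0.69, adjusted p = 0.117), Cd274 (1.65 ± 0.61, adjusted p = 0.144) and Ccnd3 (-1.54 ± 0.67, adjusted p = 0.218), all by limma. Of 50 markers of other cell types 7 were tested and 0 passed.

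The calls within these lists were mostly fragile. With the animal as a block, Fpr1, Lyz2, Jund and Fasn kept their call, and Ptgs2, Gbp5, Parp14, Camp, Slc7a11, Sqle, Sqstm1 and Tubb5 did not (limma adjusted p = 0.0527 to 0.105). Each of these 12 genes lost its call when at least 1 of the 7 libraries was left out. Jund lost it without the media library of animal 1 alone, and Lyz2 without that of animal 4 alone.

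Peaks within 1 kb of a TSS made up 37.5%, 33.6%, 43.2% and 49.8% of the limited lists in the LPSx1 libraries of animals 1, 4, 6 and 7, against 52.1%, 44.9% and 65.1% in the media libraries of animals 1, 4 and 7. The share was lower with LPSx1 in each of the 3 animals, by 14.6, 11.3 and 15.3 percentage points. The groups overlapped across animals, and the difference of means, -13.0 points, did not pass (exact 2-sided permutation p = 0.114; 35 arrangements, smallest possible 0.0286). In the full lists the difference was -17.0 points (exact permutation p = 0.0286). LPSx1 lists are longer there, so treatment and list length cannot be told apart in this value. Peaks over 100 kb from any TSS made up 9.16% ± 0.57 with LPSx1 (SD, n = 4) and 6.03% ± 1.85 in media (SD, n = 3).

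The motif content of the distal peaks moved with this shift. AP-1 matches lay in 29.2%, 27.0%, 27.5% and 30.3% of distal peaks in the LPSx1 libraries of animals 1, 4, 6 and 7, against 19.7%, 18.9% and 21.2% in the media libraries of animals 1, 4 and 7. The groups did not overlap, and within animals 1, 4 and 7 the share was higher by 9.48, 8.08 and 9.14 points. The C/EBP motif (TTGCNNAA) lay in 17.8%, 17.4%, 18.2% and 17.2% of distal peaks with LPSx1, against 14.9%, 15.2% and 12.2% in media. The PU.1 motif (GAGGAAGT) lay in 13.1% ± 0.41 with LPSx1 (SD, n = 4) and 14.5% ± 0.11 in media (SD, n = 3). Over all peaks, promoters included, PU.1 matches lay in 8.96% ± 0.61 with LPSx1 and 8.15% ± 1.42 in media and were higher with LPSx1 in each of the 3 animals, so that the lower share held for distal peaks alone. The composite motif of PU.1 with an interferon regulatory factor lay in 5.40% ± 0.24 with LPSx1 and 7.46% ± 0.73 in media, and over all peaks its groups overlapped, at 3.83% ± 0.33 with LPSx1 and 4.37% ± 1.01 in media. The GC-box of SP and KLF factors (GGGGCGGGG) lay in 1.44% ± 0.34 with LPSx1 and 2.94% ± 1.20 in media. These 5 motifs, of 12 searched on both strands, did not overlap between groups in distal peaks. Each had the smallest exact permutation p the design allows, 0.0286, and an adjusted p of 0.0686, so 0 of 12 passed. In the full lists 7 of 12 passed, each with an exact permutation adjusted p of 0.049. Treatment and list length cannot be told apart there either.

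**Figure D3:**
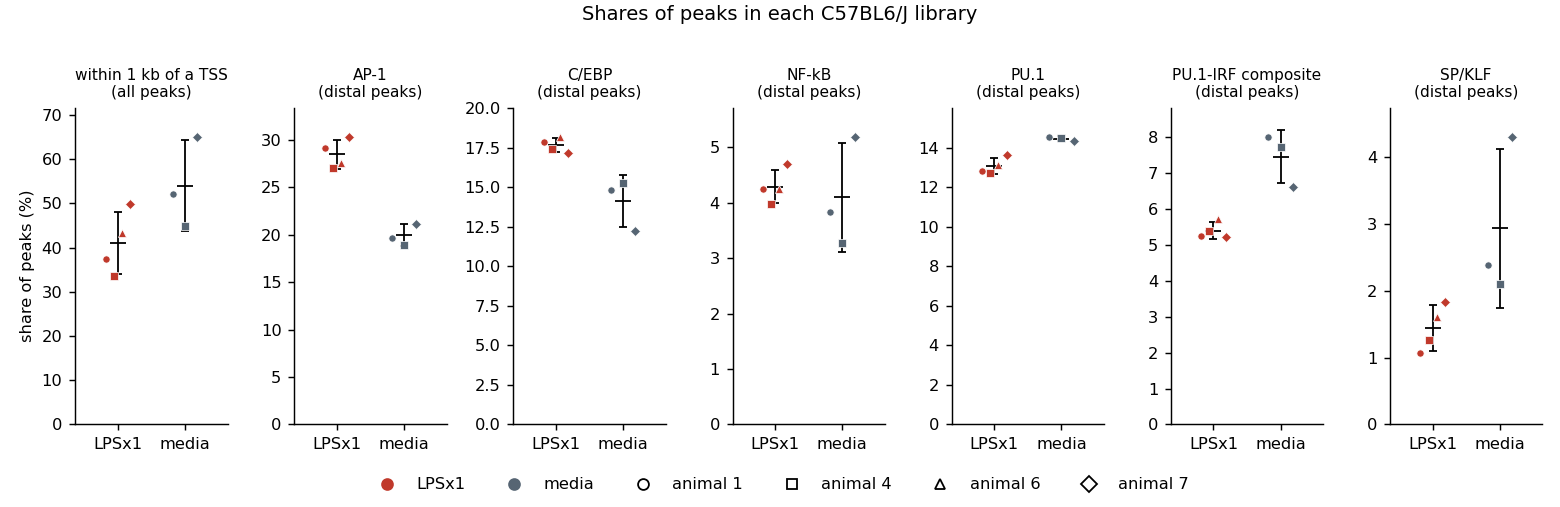
Share of peaks within 1 kb of a TSS and share of distal peaks with each of 6 motifs in every C57BL6/J library, in percent on axes that start at 0. LPSx1 libraries (red) stand left of media libraries (grey), shapes give the animal and bars the mean ± SD. AP-1 and C/EBP shares are higher in all 4 LPSx1 libraries, and PU.1, PU.1-IRF composite and SP/KLF shares are lower in all 4.

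The NF-kB motif did not follow this pattern. It lay in 4.24%, 3.97%, 4.25% and 4.70% of distal peaks with LPSx1, against 3.83%, 3.27% and 5.19% in media (exact permutation adjusted p = 0.714). It was higher with LPSx1 in animals 1 and 4 and lower in animal 7. The interferon-stimulated response element lay in 3.11% ± 0.17 with LPSx1 and 3.23% ± 0.37 in media (exact permutation adjusted p = 0.655). STAT (TTCCNGGAA), CRE (TGACGTCA), RUNX (TGTGGTT), the E-box of MiT/TFE factors (TCACGTGA) and CTCF had overlapping groups, with exact permutation adjusted p of 0.229 to 0.583.

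All sequences of 7 bases (7-mers), each counted together with its reverse complement, were tested in the distal peaks with limma. Of these, 1492 had a larger share of peaks with LPSx1, 18.2% of those tested, and 1481 a smaller share, 18.1%. The base composition moved with them. Distal peaks held 49.3% ± 0.56 G or C with LPSx1 and 51.1% ± 2.26 in media, and the media library of animal 7 stood highest at 53.7%. The part of base composition in the 7-mer and motif differences was not tested. Of the 7-mers with 5 to 7 G or C, 0 of 1856 rose and 1129 fell. Among those with 0 to 2 G or C, 669 of 1856 rose and 19 fell. Without the media library of animal 7 the counts were 626 up and 454 down, and without both libraries of animal 7 they were 447 up and 264 down.

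The largest gain of any 7-mer was that of TGACTCA, which with its reverse complement is the AP-1 motif counted above. Its shares are therefore the same values, which did not pass by exact permutation (adjusted p = 0.0686). TGACTCA lay in 28.5% ± 1.53 of distal peaks with LPSx1 and 19.9% ± 1.15 in media, a fitted difference of 8.70 ± 1.24 points (limma adjusted p = 7.99e-05). This call was kept under all 19 alternatives, with an adjusted p of at most 0.0362. The smallest p of all 7-mers was that of TGAGTAA, which lay in 6.22% ± 0.16 of distal peaks with LPSx1 and 3.83% ± 0.37 in media (difference 2.46 ± 0.18 points, limma adjusted p = 6.14e-08). TGACTAA lay in 8.33% ± 0.53 of distal peaks with LPSx1 and 5.24% ± 0.45 in media (difference 3.24 ± 0.25 points, limma adjusted p = 6.23e-08). The 8 rises with the smallest p were each called under all 19 alternatives, with adjusted p up to 0.0151. Of the 15 7-mers that hold at least 6 consecutive bases of TGACTCA, 12 rose and 0 fell. Of 22 such 7-mers of the SP/KLF site 0 rose and 22 fell, and of 22 of the PU.1 site 0 rose and 2 fell.

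**Figure D4:**
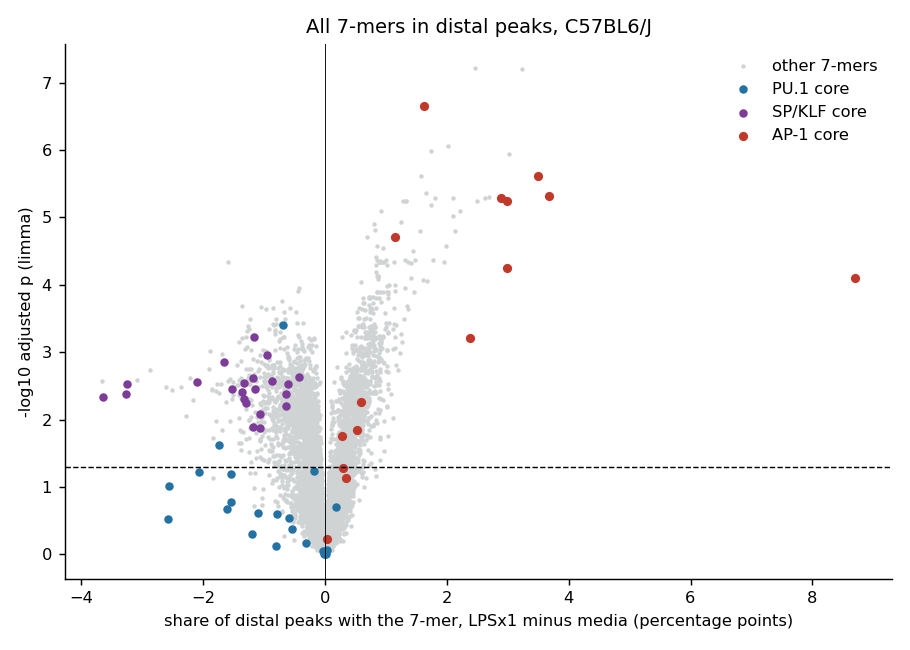
Each point is one 7-mer and its reverse complement. The horizontal axis gives the fitted difference in its share of distal peaks, LPSx1 minus media, in percentage points, the vertical axis gives -log10 of the limma adjusted p, and the dashed line marks 0.05. The AP-1 core 7-mers (red) lie on the right, with TGACTCA farthest out at 8.70 points, the SP/KLF core 7-mers (purple) lie on the left, PU.1 core 7-mers are blue and all others grey.

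The largest falls were 7-mers rich in C, such as CCCTCCC, with 9.02% ± 0.51 of distal peaks with LPSx1 and 12.5% ± 2.74 in media (difference -3.65 ± 0.81 points, limma adjusted p = 0.00269), and CCCGCCC, with 4.75% ± 0.78 and 8.08% ± 3.04 (difference -3.64 ± 0.86, limma adjusted p = 0.00468). Their media values were highest in animal 7, at 15.6% and 11.5%. CCCTCCC was called under 17 of 19 alternatives and CCCGCCC under 16, with limma adjusted p up to 0.0965 and 0.134. CATGTGA, an E-box-like sequence with 3 G or C, had the smallest p of all falls. It lay in 5.09%, 5.29%, 5.57% and 6.05% of distal peaks with LPSx1, against 7.36%, 6.26% and 7.44% in media (difference -1.59 ± 0.22 points, limma adjusted p = 4.64e-05). That call was lost under 1 of 19 alternatives, with an adjusted p of 0.466.

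Position by position, 648 regions were gained with LPSx1, 1.96% of the 33073 regions in the 7 limited lists, and 469 were lost, 1.42%. These numbers have no test, since the presence of a peak defined them. Gained regions lay far from genes' starts, with a median distance of 36.7 kb, and 2.62% lay within 1 kb of a TSS. Of the lost regions 51.6% did, at a median distance of 0.76 kb, and of the 31956 other regions 36.9%. Introns held 51.7% of gained and 33.9% of lost regions. Within 100 kb of a TSS the gained regions lay at 477 genes and the lost ones at 434. Beyond 100 kb lay 20.2% of the gained and 4.26% of the lost regions. Tet2 had 4 gained regions, and Pde4b and Ltbp1 had 3 each.

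AP-1 matches were found in 272 of 631 gained distal regions (43.1%) and 19 of 227 lost distal regions (8.37%), against 22.6% of the other 20177 distal regions. C/EBP matches lay in 23.5% of gained, 7.93% of lost and 16.5% of other distal regions. The PU.1 motif had the reverse order, with 8.72% of gained, 15.0% of lost and 12.7% of other regions, as had the PU.1-IRF composite, with 2.54%, 12.8% and 5.88%. No gained distal region held the GC-box, against 6.17% of lost and 1.60% of other regions. RUNX matches lay in 9.19% of gained, 12.3% of lost and 8.78% of other distal regions. NF-kB matches lay in 6.66% of gained, 5.29% of lost and 3.61% of other regions, more in both changed classes than elsewhere. Median G or C content was 47.3% in gained, 52.7% in lost and 48.3% in other distal regions. At the 12 genes with the largest rises there were 23 gained regions at any distance, of which 10 held an AP-1 match. Among them was a Cd47 region 196888 bp from a TSS. At the 12 largest falls there were 12 lost regions, of which 0 held one.

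The full lists were then searched, which gave gained and lost regions unequal chances to be found. The media lists of animals 1 and 4 had no peaks beyond the limit and that of animal 7 held 22382 in all, whereas every LPSx1 list went on past its limit, to between 25333 and 33981 peaks. Of the 648 gained regions 538 were also absent from every full-length media list, whereas 55 of the 469 lost regions were also absent from every full-length LPSx1 list. Most lost regions thus still had a peak in some LPSx1 list, below its limit, and the 2 shares cannot be set against each other. With full lists throughout, 2905 regions were gained and 120 lost. The counts rested on some libraries more than others. Gained regions numbered 1199 without the LPSx1 list of animal 1 and 1387 without the media list of animal 4. Lost regions numbered 819 without the LPSx1 list of animal 4, and 1456 and 932 without the media lists of animals 1 and 7. Members were spread over the ranks of the limited lists, counted from the strongest peak. The median standing was 49.7% for gained and 60.6% for lost regions.

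The regions were then sought in lists that had not defined them. The C57BL6/J LPSx2 lists of animals 1, 4 and 7, which come from the same animals, held 84.1%, 96.3% and 89.5% of the gained regions and 4.26%, 27.5% and 6.82% of the lost regions. Of all 33073 regions these LPSx2 lists held 33.2%, 58.6% and 41.0%. In BTBR the LPSx1 lists of animals 2, 3, 5 and 8 held 59.4%, 86.9%, 61.6% and 53.1% of the gained regions, and the BTBR media lists of the same animals held 8.33%, 21.3%, 10.0% and 9.41%. Every BTBR LPSx1 list was above every BTBR media list. The difference of 53.0 points had an exact permutation p of 0.0286 and, adjusted over both classes, of 0.0571. Lost regions were found at 7.46%, 37.5%, 36.5% and 29.0% in BTBR LPSx1 lists and at 34.3%, 74.0%, 74.2% and 66.7% in BTBR media lists. Each of the 4 animals was lower with LPSx1. Of all 33073 regions, the BTBR LPSx1 lists of animals 2, 3, 5 and 8 held 33.0%, 57.4%, 42.6% and 37.0%, and the BTBR media lists of the same animals held 33.2%, 57.9%, 44.1% and 40.0%. Lost regions in the media list of animal 2 thus stood near the share of all regions in that list. The difference of -34.7 points in lost regions did not pass (exact permutation adjusted p = 0.0857). With full lists throughout, gained regions were found at 63.6% in BTBR LPSx1 lists and 37.3% in BTBR media lists, a difference of 26.3 points (exact permutation adjusted p = 0.257). Counted by list, 321 of the 648 gained regions were in at least 3 of 4 BTBR LPSx1 lists and at most 1 of 4 BTBR media lists. The reverse held for 144 of the 469 lost regions. The share of all regions that meets these rules was not computed. No BTBR LPSx1 list held 57 of the gained regions.

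**Figure D5:**
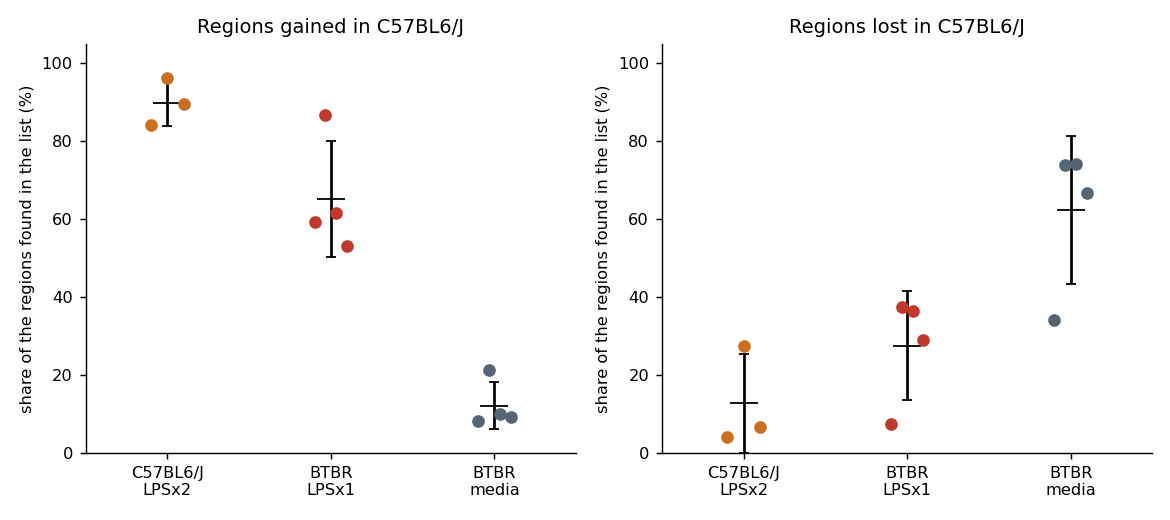
Share of the 648 gained regions (left) and 469 lost regions (right) of C57BL6/J that was found in length-limited lists not used to define them. BTBR LPSx2 lists, which are not drawn, held 46.6% to 81.8% of the gained and 14.1% to 50.7% of the lost regions. Points are libraries of C57BL6/J LPSx2 (3), BTBR LPSx1 (4) and BTBR media (4), and bars are the mean ± SD. BTBR LPSx1 lists hold 53.1% to 86.9% of the gained regions and BTBR media lists 8.33% to 21.3%.

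The response of C57BL6/J was tested against that of BTBR for every gene with an interaction term. By limma 1 of 9123 genes passed, 0.011%, and 539 had an unadjusted p under 0.05. It was Larp4b, which encodes an RNA-binding La-related protein (chromosome 13, 9093881 to 9174451). In C57BL6/J it had 7, 9, 5 and 5 peaks with LPSx1, against 3, 6 and 2 in media (difference 3.21 ± 0.57, limma adjusted p = 0.00712). In BTBR it had 2, 6, 1 and 1 peaks with LPSx1, against 3, 8, 3 and 3 in media (difference -1.75 ± 0.52, limma adjusted p = 0.165). The difference between the strains' responses was 4.96 ± 0.77 peaks (limma adjusted p = 0.0402). It lost its call when any 1 of the 7 C57BL6/J libraries was left out and with the animal as a block (limma adjusted p = 0.0845). The next smallest p-values were those of Tcf25, Pigv, Anxa1 and Ankmy2, which did not pass (limma adjusted p = 0.0828 to 0.27). At Tcf25 there were 0 peaks in each C57BL6/J LPSx1 library, 2 in each C57BL6/J media library and 1 in each BTBR library of either treatment. Of the 12 largest rises in C57BL6/J 11 had the same sign in BTBR, and of the 12 largest falls 10 had, while 0 of these 24 passed in BTBR alone. That does not show that the strains differ at them.

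Motif shares were alike in direction in both strains for AP-1, which lay in 27.9% ± 1.55 of BTBR distal peaks with LPSx1 and 20.1% ± 1.47 in BTBR media (SD, n = 4 each). For C/EBP they were not: BTBR distal peaks held the motif at 14.7% ± 0.81 with LPSx1 and 14.7% ± 1.32 in media. The NF-kB motif lay in 5.03% ± 0.61 of BTBR distal peaks with LPSx1 and 3.52% ± 0.67 in BTBR media, without overlap, whereas its C57BL6/J groups overlapped; the difference between strains in this share was not tested. The difference between strains was tested over all 7-mers, a comparison added after the C/EBP shares were seen. A single 7-mer passed, 0.0122% of those tested, and it was TGTGCAA, whose reverse complement TTGCACA begins as the C/EBP motif does. It lay in 5.50%, 5.23%, 5.49% and 5.37% of distal peaks in the C57BL6/J LPSx1 libraries of animals 1, 4, 6 and 7, against 4.01%, 4.28% and 4.02% in the media libraries of animals 1, 4 and 7. In BTBR it lay in 4.89%, 4.72%, 4.60% and 4.44% with LPSx1, against 4.78%, 4.61%, 4.53% and 4.79% in media. The responses differed by 1.35 ± 0.20 points (limma adjusted p = 0.0109). The rise within C57BL6/J was called under all 19 alternatives. The difference between strains was lost with the animal as a block (limma adjusted p = 0.0898), without the media library of animal 1 (0.102) or of animal 7 (0.0504), and with the other settings given in the closing section.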

How the data were processed

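Chromatin accessibility was measured by ATAC-seq on 50000 cells per reaction with paired reads of 50 bp, per the labels' protocols. Fragments under 147 bp were used, and the submitters' processing notes name Trimmomatic 0.38, SAMtools 1.8, Picard 2.18.4, HOMER, bedtools and the mm10 build. The aligner is not given in the sources used here. The authors deposited 1 peak list per library, at a false discovery rate of 0.01 with blacklisted regions removed, per the list names. The fourth column of each deposited list holds a score in steps of 0.5 whose scale is not stated, and it served only to rank peaks within a list. Read totals are not in these lists, so no counting interval is given.

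Overlapping peaks within a list were merged to the best score, lists under 5000 peaks were left out, and lists of 1 sequencing lane were limited to equal length by score. Lanes are those of the labels. Peaks were assigned to the nearest TSS of a protein-coding gene within 100 kb. Peak numbers per gene and 7-mer shares of distal peaks were tested with limma 3.58.1 in R 4.3.3 (trend and robust), with 6 groups of strain and treatment and the lane as terms over 22 libraries. Genes with the same peak number in every library stayed out of the estimate of the spread, a choice made after the data were seen. Motif and promoter shares were compared by exact permutation over libraries. The programs were tested on simulated data. The genes named are the 12 largest rises and 12 largest falls that passed and moved the same way in the 3 animals with both lists, the members of the gene lists that passed and up to 3 per list with the largest difference among those that did not, and the 5 smallest p-values of the strain comparison. Some genes that the rule names are not reported here. The members and gene lists were chosen with earlier results of these data known. Treatments share animals: deviations from the group means correlated between the lists of 1 animal at 0.194, 0.510 and 0.364 for animals 1, 4 and 7, so the fit with the animal as a block is given beside results it changes.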

Additional observations from a re-analysis of the deposited data

Results flagged for a closer look

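At Tet2, 1 LPSx1 library had 8 peaks while the other 3 had 9. At Pigv, 1 LPSx1 library had 1 peak while the other 3 had 0, and at Msl1 1 had 0 peaks while the other 3 had 1. Each library stood apart from identical values by a single peak. In 40 groups examined for a value far from the others 3 were found. How often tied peak numbers give such a flag by chance was not tested.

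The response of Larp4b differed between C57BL6/J and BTBR by 4.96 ± 0.77 peaks (limma interaction term, adjusted p = 0.0402). The share of distal peaks with TGTGCAA responded more in C57BL6/J than in BTBR, by 1.35 ± 0.20 points (limma interaction term, adjusted p = 0.0109), in a test added after the data were seen.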

How the results depend on the processing

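The number of genes that passed was 92 with the animal as a block (84 of them among the 297), 3 without the lane term, 0 at full list length, 154 in the stronger 50% of each list and 2 without the duplicated lists, which leaves a single media library that is assumed to vary like the other groups. It was 6 to 232 when a library or an animal was left out. At full length 8 falls reversed: Elmo1 at 1.38, Mthfs 1.21, Lrp1 1.19, Sgk1 1.77, Nav1 2.60, Pigv 0.0833, Lgals3 0.208 and Sh2b3 1.35 peaks. The cause was not tested.

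Genes that differed between strains numbered 0 with the replicate block, without the lane term, at full length, in the stronger 50%, without the duplicated lists, with overlapping peaks kept, within 25 kb, with no filter, on the log2 scale and with any library or animal left out (0 to 0). They numbered 3 with constant genes in the spread estimate, an alternative added after the data were seen. With 1 common list length 1 other gene passed. The 7-mers that passed numbered 1219 without the lane term, 1431 with only the 7 libraries, 5836 over all peaks and 711 to 3218 with libraries or animals left out. The 7-mers that differed between strains numbered 0 with the block, 1 common length, full length, the stronger 50%, no duplicated lists and all peaks, and 0 to 1 with libraries or animals left out.

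The promoter share differed by -17.0 points at full length, where LPSx1 lists are longer, and 7 motifs passed there. The difference in list length was 0.84 without animal 6 and 2.09 as deposited (log2). Gained regions numbered 2905 at full length, 344 in the stronger 50% and 675 to 1387 with libraries left out. Lost regions numbered 120, 304 and 505 to 1456, and 55 when absent also from full lists. The BTBR difference in gained regions was 46.6 points at 1 common length and 55.3 when absent also from full lists, both with an exact permutation adjusted p of 0.0286, but 45.6 in the stronger 50% (0.0571) and 26.3 at full length (0.257). For lost regions it was -36.1 and -50.9 points. With libraries left out of the definition it was 36.1 to 52.3 points for gained and -34.3 to -30.1 for lost regions. Read depth is unknown, so a missing peak limits no level.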
